A study of Mus musculus with 2 samples.

Results

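Monocytes leave the blood and enter a tumor along gradients of small secreted proteins, the CC chemokines, and the genes described here are 5 such ligands (Ccl2, Ccl7, Ccl12, Ccl3 and Ccl4), the membrane-anchored chemokine fractalkine (Cx3cl1), and the receptors Ccr1, Ccr2 and Cx3cr1. The members were chosen by name, as the rows of the count matrices that carry these gene symbols. Of the 9 listed genes, 8 were measured among 19059 genes, and Cx3cr1 was not analysed here. Cells were obtained from orthotopic tumors of mGSC, a line of mouse glioblastoma stem cells with the genotype Trp53+/- and Nf1+/-, grown in C57BL/6J mice with an intact immune system. All mice carried the same tumor genotype, and they differed in receiving either vehicle or Xevinapant, a SMAC mimetic that antagonizes inhibitor of apoptosis proteins, every day until the tumors were collected. A single tumor line was used, and the labels describe each group as 1 pool.

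The 5 ligands fall into a pair of families. Ccl2, Ccl7 and Ccl12 are monocyte chemoattractant proteins that act on Ccr2, the receptor by which inflammatory monocytes leave the bone marrow and reach inflamed tissue, whereas Ccl3 and Ccl4 are macrophage inflammatory proteins. Ccl3 acts on Ccr1. In the brain, fractalkine is made mainly by neurons and is read by Cx3cr1 on microglia, the resident macrophages of the brain, and on monocytes.

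The authors deposited 8 matrices, 4 per group, with 4505 to 14728 cell barcodes each and median totals of 7452 to 14027 unique molecular identifiers (UMIs, each standing for 1 captured molecule) per barcode. Filters on genes, mitochondrial share and complexity kept 54574 of 56943 barcodes. Within a group, 3 pairs of matrices were so alike in cell makeup and expression that each pair was counted as 1 sample, which left 3 vehicle samples (Vehicle 1+3, Vehicle 2 and Vehicle 4) and 2 Xevinapant samples (Xevinapant 1+2 and Xevinapant 3+4). The joined pairs still differed by 2.19 to 8.64 times sampling noise (other pairs of a group by 28.9 to 82.3 times), and the study's text describes separate tumors in each group, so each matrix may be a tumor of its own. Taken so, 1389 genes were called over all kept cells, Ccl7 among them, against 0 with the joined samples. With 3 against 2 samples the smallest p an exact two-sided permutation test can give is 0.1, and with 4 against 4 matrices it would be 0.0286. The groups also differ in pool and batch date, and effects of the treatment and of the batch cannot be told apart. The 2 pools shared 1413 full barcodes, all between matrices of the same number, and leaving these cells out changed no count of members called in the 8 comparisons. P-values measure the spread between these samples, which may be technical.

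The 5 ligand genes lie in a pair of clusters on chromosome 11 (mouse genome build GRCm38). The monocyte chemoattractant genes are Ccl2 at chr11:82035571-82037453, Ccl7 at chr11:82045712-82047525 and Ccl12 at chr11:82101845-82103400, all on the plus strand, with 8258 bases between Ccl2 and Ccl7 and 54319 between Ccl7 and Ccl12. The other cluster holds Ccl3 at chr11:83647844-83649355 on the minus strand and Ccl4 at chr11:83662584-83664683 on the plus strand, 13228 bases apart. Over all columns of an alignment, gaps included, coding sequences were 63.5% identical between Ccl7 and Ccl12 and 68.4% between Ccl3 and Ccl4. Ccl2 was 46.6% identical to Ccl7 and 48.3% to Ccl12. The coding sequence of Ccl2 is longer, at 447 bases against 294 for Ccl7 and 315 for Ccl12, and its unmatched part lowers these values. The receptors share a region of chromosome 9, where Ccr1 (chr9:123962124-123968692, minus strand) and Ccr2 (chr9:124101950-124113557, plus strand) stand 133257 bases apart with 61.2% coding identity. Cx3cl1 lies on chromosome 8 (chr8:94772009-94782427, plus strand). The windows below lie upstream of the annotated gene starts, and they are shown because they stand in front of genes with different patterns over the named classes, Ccl12 with its highest levels in macrophages, monocytes and microglia, Ccl3 in neutrophils, and Cx3cl1 with most of its UMIs in tumor cells. They come from RefSeq (GRCm38.p6) at chr11:82101595-82101844 (plus strand), chr11:83649379-83649628 (minus strand) and chr8:94771930-94772008 (plus strand), read 5′ to 3′ along the gene's strand, and capitals mark a TATA box.
Ccl12: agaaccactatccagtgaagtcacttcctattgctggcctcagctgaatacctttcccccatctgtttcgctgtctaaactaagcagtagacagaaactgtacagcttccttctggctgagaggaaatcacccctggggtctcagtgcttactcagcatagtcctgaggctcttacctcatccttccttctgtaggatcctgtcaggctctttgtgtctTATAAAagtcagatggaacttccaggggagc
Ccl3: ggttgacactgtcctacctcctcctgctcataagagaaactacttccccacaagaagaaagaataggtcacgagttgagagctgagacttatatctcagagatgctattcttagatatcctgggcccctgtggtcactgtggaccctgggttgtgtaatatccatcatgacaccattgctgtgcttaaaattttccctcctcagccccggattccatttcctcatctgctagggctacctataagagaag
Cx3cl1: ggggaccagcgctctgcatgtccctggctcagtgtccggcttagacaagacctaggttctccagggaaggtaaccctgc
Searched on both strands were the TATA box, TATAAA, and the AP-1 motif, TGANTCA, which do not overlap here. Among 32851 mouse promoter windows of 250 bases in the RefSeq table, 12.37% held TATAAA and 6.75% held TGANTCA. Of the 4 members with a window in the table, including Ccr1, the Ccl12 window held 1 TATAAA and no other window, the shorter one of Cx3cl1 included, held either motif.

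Cells were assigned to classes by UMIs on marker genes, among which no member was used. Macrophages (1479 cells), microglia (960), monocytes (347), neutrophils (330), fibroblasts and pericytes (779), endothelial cells (275) and tumor cells (44327) were the main classes, and 2192 cells that carried markers of unrelated classes were set apart as mixed. Microglia carried Tmem119 in 94.27% of cells, against 38.34% of macrophages, monocytes carried Plac8 in 70.61%, against 22.45% of macrophages, and neutrophils carried Csf3r in 94.24%. The macrophage marker Pf4 stood at 2397 CPM (UMIs of the gene per 1000000 UMIs) in macrophages and at 322 in microglia, while Ms4a7 was found in both, in 81.34% and 93.02% of cells. These genes were themselves among the gate markers, so their values follow in part from the gating and are no independent check of the classes. Levels are given in CPM, the count of a gene scaled by all UMIs of the class in that sample, and they are compared between cells and samples for 1 gene at a time, because each gene is read by its own probes.

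Averaged over all 5 samples, Ccl2 and Ccl7 were highest in macrophages and monocytes, followed by fibroblasts and pericytes. Ccl12 was highest in macrophages, monocytes and microglia. In macrophages Ccl2 stood at 404 CPM in Vehicle 1+3, 316 in Vehicle 2, 194 in Vehicle 4, 799.7 in Xevinapant 1+2 and 347 in Xevinapant 3+4. Ccl7 stood at 656, 289.6 and 258 CPM in macrophages of the same vehicle samples and at 1342 and 596.5 CPM in those of the Xevinapant samples. Ccl12 stood at 245, 114 and 174 CPM and at 613 and 322 CPM. Over all 5 samples, Ccl2 averaged 412 ± 230 CPM (SD, n = 5) in macrophages, 376 ± 230 in monocytes, 101 ± 45.1 in fibroblasts and pericytes and 83.2 ± 93.6 in microglia, so that neither the first pair nor the second pair of neighbours differed beyond their spread. For Ccl7 the order over these samples was the same, at 628 ± 437 CPM in macrophages, 363 ± 280 in monocytes and 239 ± 174 in fibroblasts and pericytes. Microglia were far below at 35.9 ± 19.7. In the vehicle samples alone, fibroblasts and pericytes averaged 281.5 CPM of Ccl7, above monocytes at 238.0. Ccl12 was a gene of macrophages (294 ± 195 CPM), monocytes (285 ± 167) and microglia (241 ± 75.7), whose levels did not differ beyond their spread. The order of these classes differed between the groups. Vehicle samples averaged 309.0 CPM in monocytes, 220.1 in microglia and 177.7 in macrophages. Xevinapant samples averaged 467.6 CPM in macrophages, 272.7 in microglia and 249.4 in monocytes. Ccl12 was low in fibroblasts and pericytes, at 2.18 to 16.8 CPM. A few cells set some of these levels. In microglia of Vehicle 1+3 a single cell held 259 of the 357 Ccl2 UMIs, and the level there was 247 CPM with it and 70.7 without it. In monocytes of Vehicle 1+3 a single cell held 95 of 116 Ccl7 UMIs, and in fibroblasts and pericytes of Vehicle 2 a single cell held 120 of 251.

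**Figure D1:**
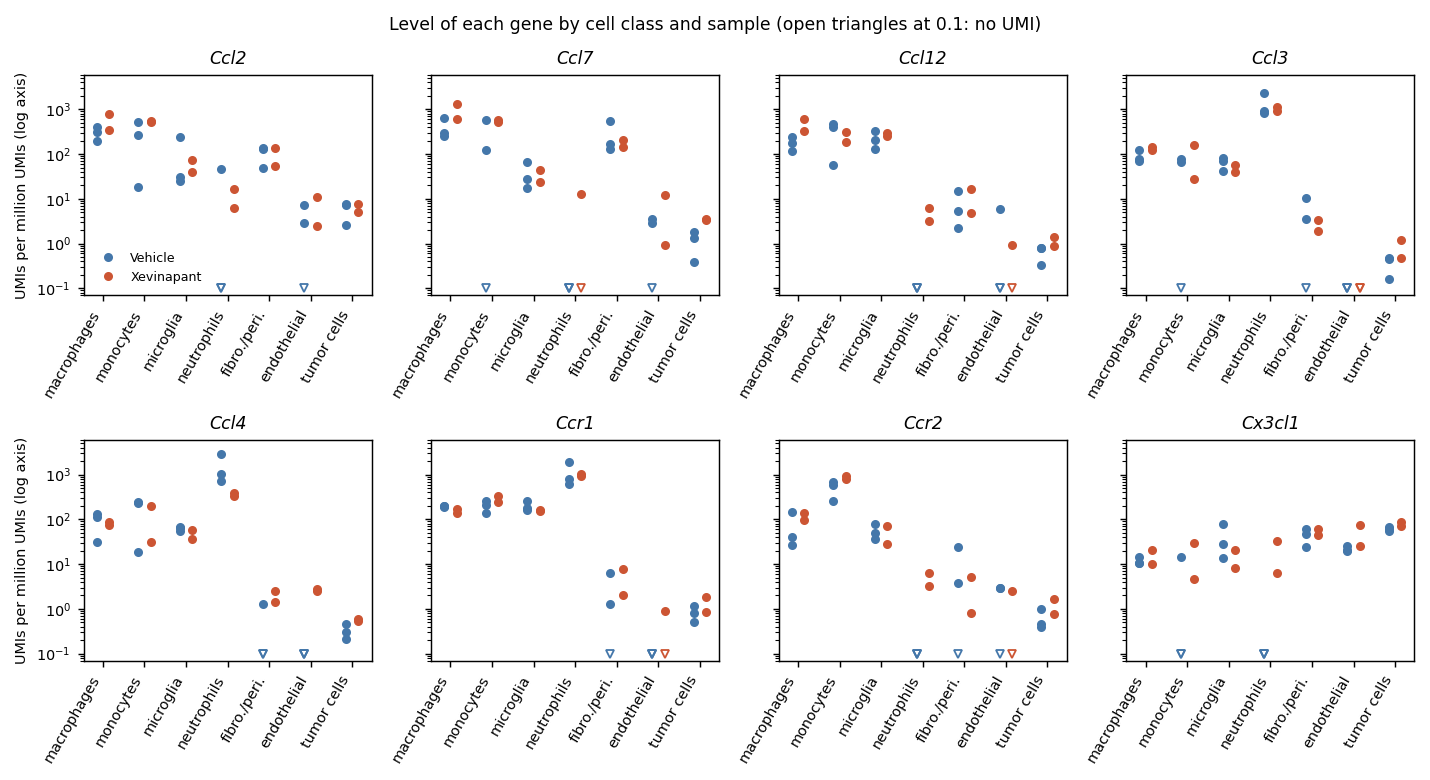
Level of each of the 8 measured genes (CPM, log axis) in 7 cell classes, 1 point per sample (blue, Vehicle; orange, Xevinapant), with open triangles where a sample had no UMI of the gene. On average among the classes drawn, Ccl2 and Ccl7 were highest in macrophages and monocytes, and Ccl12 in macrophages, monocytes and microglia. Ccl3, Ccl4 and Ccr1 were highest in neutrophils, Ccr2 in monocytes, and Cx3cl1 in tumor cells.

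Tumor cells had little Ccl2 each but carried many of its UMIs. They held it at 2.67 to 7.81 CPM, yet they made up 86.1 ± 2.41% of vehicle cells (SD, n = 3) and carried 44.5% to 71.0% of the Ccl2 UMIs of a vehicle sample. In the Xevinapant samples they carried 7.62% and 50.1%. Scaled by all UMIs of a sample, tumor-cell Ccl2 averaged 5.38 CPM in vehicle and 5.51 CPM in Xevinapant samples, and macrophage Ccl2 2.05 and 18.9 CPM. Free RNA from other cells can give UMIs in tumor cells. Relative to macrophages, the summed myeloid markers stood at 0.245% to 0.482% in tumor cells, and Ccl2 at 0.646% to 4.03%, above the markers in each of the 5 samples. Ccl7 stood at 0.135% to 0.699%, above the markers in Vehicle 4 (0.699% against 0.326%) and Xevinapant 3+4 (0.554% against 0.405%) and below them in the other 3. Ccl12 stood at 0.232% to 0.451%, above the markers in the 3 vehicle samples and below them in the 2 Xevinapant samples. An excess over the markers was not particular to Ccl2. The receptors Ccr1, at 0.262% to 1.07%, and Ccr2, at 0.684% to 1.43%, also stood above the markers in each of the 5 samples. Ccl3 and Ccl4 were above the markers in some samples and below them in others. In fibroblasts and pericytes the markers stood at 0.684% to 2.18% of the macrophage level, against 12.3% to 67.5% for Ccl2 and 15.3% to 189% for Ccl7. The myeloid markers were themselves gate markers, and no member was. Cells of these classes with enough myeloid markers were set apart as mixed, and macrophages were gated on high levels of them. The marker values are therefore lowered by the gating, and the comparison cannot tell free RNA from RNA of the cells themselves.

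When all kept cells of a sample were summed, the 3 monocyte chemoattractants were higher in the Xevinapant tumors on average, but 1 of the 2 samples carried most of the difference. Ccl2 stood at 14.5, 5.62 and 10.0 CPM in Vehicle 1+3, Vehicle 2 and Vehicle 4 and at 54.9 and 13.7 CPM in Xevinapant 1+2 and Xevinapant 3+4, so that the groups overlapped. Ccl7 stood at 10.1, 4.60 and 4.35 CPM against 84.9 and 12.7 CPM, and Ccl12 at 7.78, 2.46 and 5.11 CPM against 39.2 and 8.80 CPM, and for both genes the 2 Xevinapant samples exceeded the 3 vehicle samples. The log2 fold change, fitted by edgeR's quasi-likelihood test over 15159 genes with Benjamini-Hochberg adjustment, was 2.89 ± 0.75 (SE) for Ccl7 (adjusted p = 0.247), 2.18 ± 0.68 for Ccl12 (adjusted p = 0.247) and 1.72 ± 0.60 for Ccl2 (adjusted p = 0.256). Without Xevinapant 1+2 these values were 0.92, 0.70 and 0.35. In such sums a smaller number of cells of a type and less RNA per cell cannot be told apart. Of the 8 members, 0 passed the edgeR test at an adjusted p of 0.05, against 0.0% of all genes, and 5 had an unadjusted p under 0.05, as did 16.7% of all genes, while DESeq2 called Ccl12 and Ccl3 (2 of 8, against 4.08% of genes) and edgeR with each matrix as 1 tumor called Ccl7 (1 of 8, against 9.46%). Both Xevinapant samples exceeded the vehicle samples for 5 of 8 members, against 24.0% of all genes, and 0 of 8 were lower in both, against 11.5%. The median log2 fold change of the members was 1.75, and that of all genes 0.01.

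**Figure D2:**
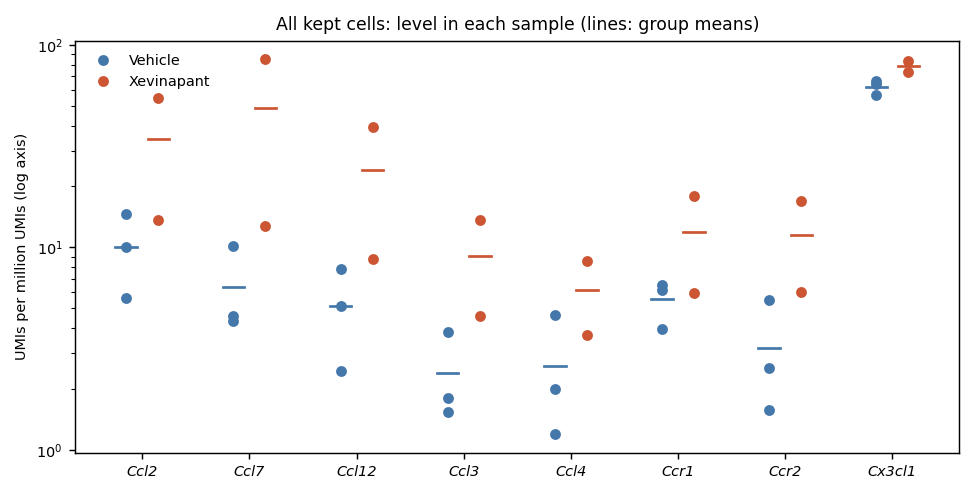
Level of each gene (CPM, log axis) over all kept cells, 1 point per sample, with lines at the group means of 3 Vehicle and 2 Xevinapant samples. The upper Xevinapant point of each gene is Xevinapant 1+2, and the lower one lies within the vehicle range for Ccl2, Ccl4 and Ccr1.

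The shares of macrophages and of several other non-tumor classes among kept cells moved with these sums. Macrophages made up 2.42%, 1.28% and 1.20% of cells in the vehicle samples and 7.08% and 2.42% in the Xevinapant samples (1.63 ± 0.68%, n = 3, against 4.75 ± 3.29%, n = 2, exact permutation p = 0.1, the smallest possible). Xevinapant 3+4 and Vehicle 1+3 were level, at 2.4239% and 2.4232%, so that the separation of the groups rests on that difference. Monocytes made up 0.45%, 0.17% and 0.41% of cells in the vehicle samples and 1.36% and 0.75% in the Xevinapant samples (exact permutation p = 0.1). Fibroblasts and pericytes made up 0.93%, 0.52% and 0.96% against 3.95% and 1.12% (exact permutation p = 0.1). Macrophages held 25.4 ± 12.3% of the UMIs of the 5 ligands as a pool in vehicle samples and 47.6 ± 22.7% in Xevinapant samples. For Ccl12 the macrophage share was 29.5%, 26.0% and 10.5% in vehicle samples and 67.5% and 33.9% in Xevinapant samples, while the microglial share was 43.5%, 50% and 41.4% against 8.82% and 37.2%. Each Xevinapant sample had a larger macrophage share and a smaller microglial share of Ccl12 than each vehicle sample. Scaled by all UMIs of a sample, microglial Ccl12 was not lower on average, at 2.245 CPM in vehicle and 3.367 CPM in Xevinapant samples. Macrophage Ccl12 averaged 1.157 and 14.737 CPM. For Ccl7 the macrophage share was 60.8%, 35.2% and 18.2% against 68.3% and 43.5%, with overlap between the groups.

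**Figure D3:**
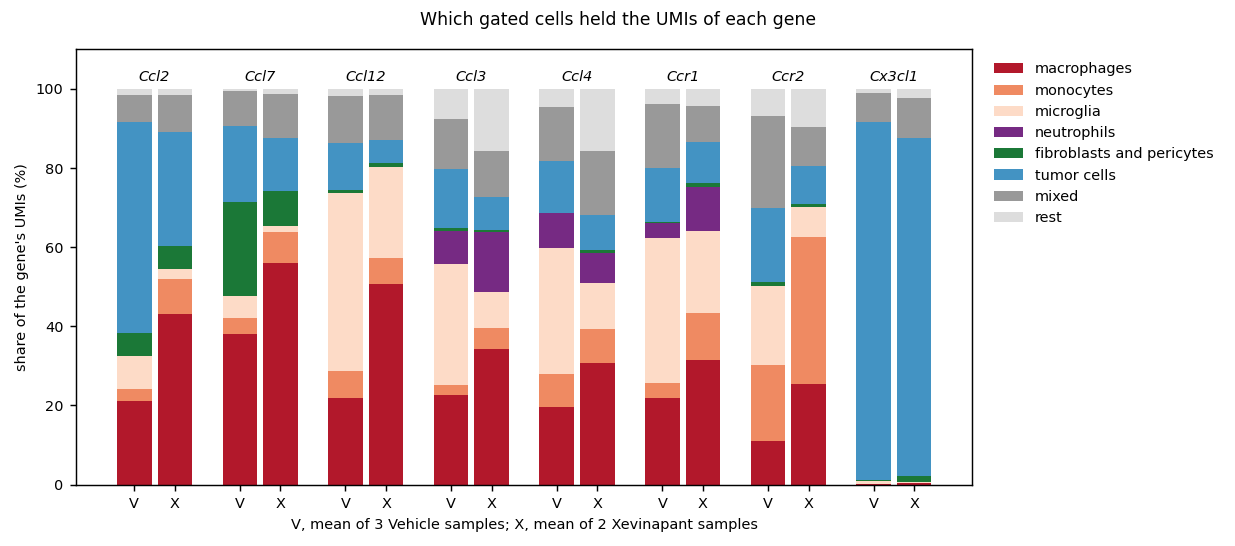
Share (%) of the UMIs of each gene held by each gated class, as stacked bars of the mean of 3 Vehicle (V) and 2 Xevinapant (X) samples. The macrophage share of Ccl12 was 22.0% in V and 50.7% in X, its microglial share 45.0% and 23.0%, and tumor cells held 90.6% and 85.5% of Cx3cl1. Shares do not show amounts. Scaled by all UMIs of a sample, microglial Ccl12 averaged 2.245 CPM in V and 3.367 in X, and tumor-cell Cx3cl1 56.4 and 67.1.

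Within macrophages the monocyte chemoattractants had smaller fold changes than over all kept cells, and the groups overlapped for Ccl2 and Ccl7. The log2 fold change was 1.44 ± 0.35 (SE) for Ccl12 (edgeR adjusted p = 0.255), 1.32 ± 0.45 for Ccl7 (adjusted p = 0.351) and 0.98 ± 0.39 for Ccl2 (adjusted p = 0.395). Ccl3 had a value of 0.60 ± 0.23 (adjusted p = 0.375), and Ccl4 one of -0.20 ± 0.41 (adjusted p = 0.865). Ccl12 was the only member with both Xevinapant samples above the vehicle range, 1 of 8, against 12.4% of genes. Of the 8 members 0 passed the edgeR test, against 0.00972% of 10290 genes, 4 had an unadjusted p under 0.05 (against 12%), and DESeq2 called 1, Ccl12 (against 0.413% of genes). Without Xevinapant 1+2 the values were 0.84 for Ccl12, 0.56 for Ccl7 and 0.18 for Ccl2, and without Xevinapant 3+4 Ccl12 (1.86) and Ccl2 (1.49) passed the edgeR test, as did 261 of 10396 genes, with 1 Xevinapant sample left, which is assumed to vary like the vehicle samples. Macrophages with a UMI of Ccl7 made up 26.8%, 19.8% and 17.4% in the vehicle samples and 52.9% and 31.2% in the Xevinapant samples. Median UMI totals per macrophage differed between samples, and after each cell was thinned to 1000 UMIs the shares averaged 15.2 ± 6.66% and 28.6 ± 16.6% (exact permutation p = 0.3). Summed tumor markers were at 1137 to 1552 CPM in vehicle and 520.4 and 1024 CPM in Xevinapant macrophages, where all 14 genes of the list had counts in each sample, and the 10 macrophage markers summed to 5777 to 8867 CPM and to 13191 and 8857 CPM. The part of these in the result was not tested.

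Monocytes and microglia gave no call either. In monocytes Ccl2 stood at 511, 18.9 and 271 CPM in the vehicle samples and at 517 and 562 CPM in the Xevinapant samples, the first close to the highest vehicle value. Ccl7 stood at 593, 0 and 121 CPM against 574 and 528 CPM, the 0 being that of Vehicle 2, which had 12 monocytes and a level of 56.6 CPM for 3 counts. Of 7 members tested in monocytes 0 passed the edgeR test (against 0.274% of 7666 genes), 2 had an unadjusted p under 0.05 (Ccr1 and Ccr2, against 11.6% of genes), and DESeq2 called 0 (against 0.244%). Without Vehicle 1+3, whose Ccl7 came mostly from 1 cell, Ccl7 had a log2 fold change of 2.66 and passed the test, as did 82 of 8874 genes, against 1.11 ± 0.65 (adjusted p = 0.518) with it. In microglia Ccl12 stood at 324, 131 and 205 CPM against 254 and 291 CPM, which overlapped, and of 8 members 0 were called and 0 had an unadjusted p under 0.05 (edgeR, against 0.0% and 5.48% of 10810 genes). DESeq2 called 0 there too, against 0.0265% of genes. The microglial log2 fold changes ran from -1.33 for Cx3cl1 to 0.33 for Ccl12. In fibroblasts and pericytes Ccl7 stood at 131, 547 and 166 CPM against 205 and 146 CPM, and of 4 members tested 0 were called and 0 had an unadjusted p under 0.05 (edgeR, against 0.0% and 6.92% of genes). DESeq2 called 0 of the members in these cells, against 0.135% of genes, and 0 of 4 lay outside the vehicle range in both Xevinapant samples, against 9.4% of genes above it and 13.2% below it. In tumor cells the median member was at a log2 fold change of 0.76, and of 8 members 0 were called by edgeR (against 0.0% of 14578 genes) and 0 by DESeq2 (against 1.44%), and 2, Ccl7 and Cx3cl1, had an unadjusted p under 0.05, as did 11.5% of genes. Ccl7 in tumor cells had a log2 fold change of 1.51 ± 0.57 (edgeR adjusted p = 0.413), from levels of 1.31, 0.39 and 1.81 CPM to 3.63 and 3.30 CPM. The 10 macrophage markers in tumor cells summed to 34.3 to 85.4 CPM in vehicle and to 137 and 115 CPM in Xevinapant samples, with counts on all 10 genes in each, and their part in the Ccl7 value was not tested.

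**Figure D4:**
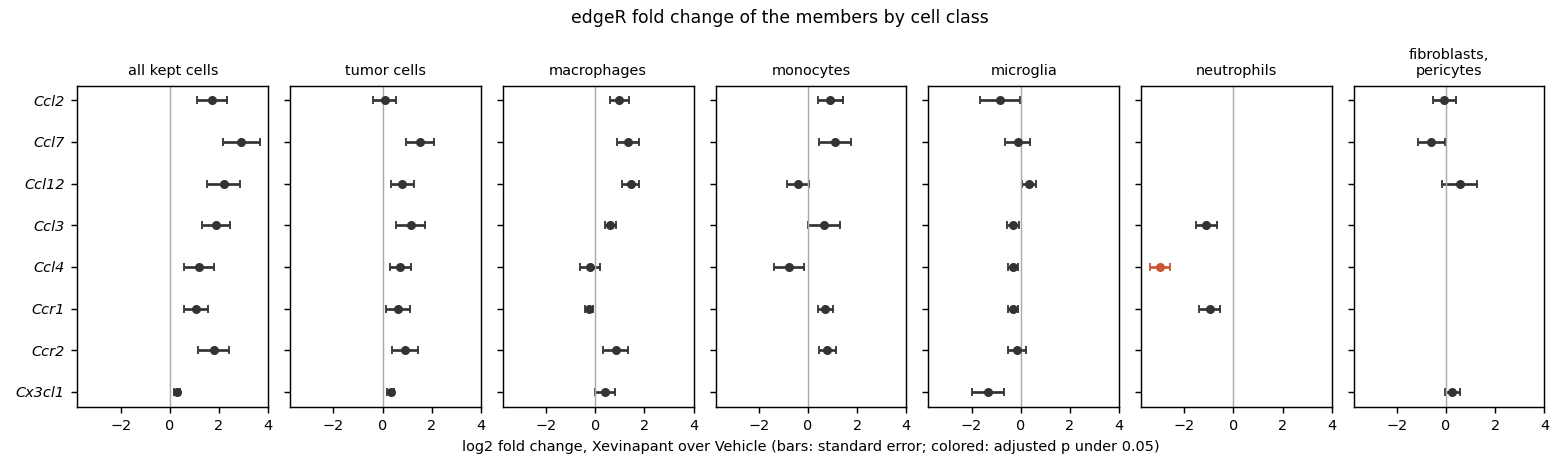
Log2 fold change of Xevinapant over Vehicle for each member in 7 sets of cells (points, edgeR estimate; bars, standard error; orange, adjusted p under 0.05). The 8 members lie above 0 in all kept cells, 6 of 8 do so in macrophages, and Ccl4 in neutrophils, the only colored point, rests on 1 Vehicle sample.

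Averaged over samples with at least 10 cells of a class, the macrophage inflammatory protein genes Ccl3 and Ccl4 were highest in neutrophils. Ccl3 stood at 2276 CPM in neutrophils of Vehicle 1+3 (37 cells), 906 in Vehicle 2 (9 cells), 814 in Vehicle 4 (9 cells), 931 in Xevinapant 1+2 (202 cells) and 1128 in Xevinapant 3+4 (73 cells). The highest vehicle value stood apart from the other 4, which lay close together. Ccl4 stood at 2933, 704 and 1017 CPM in the same vehicle samples and at 337 and 380.2 CPM in the Xevinapant samples, so that the vehicle values were all the higher. The values of Vehicle 2 and Vehicle 4 rest on 7 and 10 UMIs. Over the 3 samples with at least 10 neutrophils, Ccl3 averaged 1445 ± 726 CPM (SD, n = 3) in neutrophils, against 109 ± 32.1 in macrophages and 65.9 ± 60.4 in monocytes (n = 5), and Ccl4 averaged 1217 ± 1486 CPM, against 147 ± 113 in monocytes and 86.7 ± 38.1 in macrophages. The spread of Ccl4 in neutrophils was larger than its distance from the other classes. NK cells, lymphocytes that make these ligands when activated, held Ccl4 at 938 CPM in Xevinapant 3+4 (11 cells), above the neutrophils of that sample. Of those 50 UMIs in NK cells, 32 came from 1 cell.

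The lower Ccl4 level in Xevinapant neutrophils was called or not depending on which vehicle samples entered. In the fit on samples with at least 10 neutrophils the log2 fold change of Ccl4 was -2.99 ± 0.42 (edgeR adjusted p = 0.0294), and 1 of 3 members tested was called, against 0.0219% of 4573 genes, as it was with DESeq2 (against 0.00813%). That fit holds 1 vehicle sample, which is assumed to vary like the Xevinapant samples. All 3 members tested (Ccl3, Ccl4 and Ccr1) lay below that sample in both Xevinapant samples, as did 36.3% of genes, while 40.8% lay above it. With samples of 5 or more neutrophils, an alternative chosen after seeing the data, all 3 vehicle samples entered and Ccl4 had a log2 fold change of -2.16 ± 0.53 and an adjusted p of 0.368. DESeq2 size factors and the stricter gate gave no call either. The share of neutrophils with a Ccl4 UMI was 43.2%, 33.3% and 33.3% in the vehicle samples and 16.3% and 34.2% in the Xevinapant samples, with overlap. Neutrophils made up 0.199 ± 0.184% of vehicle and 1.38 ± 1.27% of Xevinapant cells (exact permutation p = 0.1). Over all kept cells Ccl3 stood at 3.83, 1.54 and 1.81 CPM against 13.6 and 4.58 CPM (log2 fold change 1.88 ± 0.57, edgeR adjusted p = 0.247), without overlap, and Ccl4 at 4.62, 1.20 and 1.99 CPM against 8.57 and 3.70 CPM (1.19 ± 0.62, adjusted p = 0.361), with overlap. Neutrophils held only part of these UMIs, 1.75% to 18.3% of Ccl3 and 1.99% to 19.6% of Ccl4 in any sample, against 17.2% to 39.3% and 15.0% to 43.0% in macrophages and 3.98% to 48.9% and 5.75% to 52.1% in microglia.

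By level, Ccr1, the receptor for Ccl3, was highest in myeloid cells. Neutrophils held it at 1296 ± 566 CPM (SD, n = 3), well above monocytes (237 ± 69.1, n = 5), microglia (183 ± 40.3) and macrophages (179 ± 25.4), and the last 3 did not differ beyond their spread. A Ccr1 UMI was found in 60.7 ± 8.86% of vehicle and 69.2 ± 6.88% of Xevinapant neutrophils, in 63.6 ± 10.9% and 55.8 ± 5.24% of microglia, and in 41.2 ± 5.06% and 40.2 ± 6.37% of macrophages. In endothelial cells, which should lack the gene, a UMI was found in 0 of 124 vehicle cells, which allows up to 2.42%, and in 0.532% of Xevinapant ones. Fibroblasts and pericytes held more Ccr1, at 3.45 ± 3.33 CPM against 0.18 ± 0.41 in endothelial cells (n = 5), so the background differed between classes. Tumor cells, with Ccr1 at 1.04 ± 0.51 CPM (n = 5), still made up 19.4% to 35.3% of the cells with a Ccr1 UMI in a sample. In macrophages Ccr1 stood at 196, 198 and 191 CPM in the vehicle samples and at 172 and 137 CPM in the Xevinapant samples. Both Xevinapant samples were lower (1 of 8 members, against 17.2% of genes), and the log2 fold change of -0.27 ± 0.17 did not pass the test (edgeR adjusted p = 0.54). In monocytes it stood at 210, 264 and 138 CPM against 325 and 248.6 CPM (log2 fold change 0.71 ± 0.30, adjusted p = 0.381).

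Ccr2, the receptor for Ccl2, Ccl7 and Ccl12, was highest among myeloid cells in monocytes, and NK cells, T cells and dendritic cells also held it. Monocytes had 593, 264 and 678 CPM in the vehicle samples and 948 and 798 CPM in the Xevinapant samples, so that both Xevinapant samples exceeded the vehicle samples (2 of 7 members, Ccl2 and Ccr2, against 12.7% of genes), with a log2 fold change of 0.78 ± 0.35 (edgeR adjusted p = 0.411). Among classes, dendritic cells had 343 ± 109 CPM (n = 3), T cells 335 ± 116 (n = 4), macrophages 89.9 ± 54.4 and microglia 53.4 ± 22.0 (n = 5), and neighbours in that order overlapped apart from T cells and macrophages. A Ccr2 UMI was found in 53.0 ± 10.6% of vehicle and 70.3 ± 5.06% of Xevinapant monocytes, in 9.09 ± 5.73% and 19.6 ± 5.84% of macrophages, and in 0.945 ± 0.524% of Xevinapant neutrophils. It was found in 0 of 55 vehicle neutrophils, which allows up to 5.45% of cells with a UMI by counting error alone. Of these cells 37 came from Vehicle 1+3, and their median totals were 1021 to 1193 UMIs per matrix, so that the 0 sets no limit on cells with the transcript. In endothelial cells the share was 1.61 ± 1.49% and 1.19 ± 1.68%. Monocytes held 33.0%, 7.57% and 17.0% of all Ccr2 UMIs in the vehicle samples and 37.5% and 36.7% in the Xevinapant samples.

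Counted over all kept cells, receptor-bearing cells were on average more frequent in the Xevinapant samples, and before thinning the groups overlapped. With 3 against 2 samples the permutation test cannot give a p under 0.1, so it could not pass a threshold of 0.05. Cells with a Ccr1 UMI made up 3.97 ± 1.15% of vehicle and 7.26 ± 3.38% of Xevinapant cells (exact permutation p = 0.2, adjusted over 8 members 0.267). Cells with a Ccr2 UMI made up 1.94 ± 1.21% and 4.43 ± 1.64% (exact permutation p = 0.3, adjusted 0.343). After thinning to 1000 UMIs, which left out 2304 vehicle and 2078 Xevinapant cells, the shares were 0.990 ± 0.219% and 2.38 ± 1.47% for Ccr1 (exact permutation p = 0.1) and 0.567 ± 0.318% and 1.57 ± 0.973% for Ccr2 (exact permutation p = 0.2). The Ccr1 difference was 3.29 percentage points with both Xevinapant samples and 0.901 without Xevinapant 1+2, and the Ccr2 difference was 2.49 and 1.33. Cells with a Ccr1 UMI were at 4.87% in Xevinapant 3+4 and 4.93% in Vehicle 4, and cells with a Ccr2 UMI at 3.27% in Xevinapant 3+4, below the 3.31% of Vehicle 4. Among cells with a Ccr2 UMI, monocytes made up 16.03%, 6.67% and 7.81% in the vehicle samples and 17.9% and 15.3% in the Xevinapant samples, and tumor cells, in which 0.907 ± 0.553% and 1.92 ± 0.565% of cells had a Ccr2 UMI, made up 35.1%, 48.0% and 40.3% against 27.8% and 36.9%. Over all kept cells Ccr2 stood at 2.54, 1.58 and 5.47 CPM against 16.9 and 6.02 CPM (log2 fold change 1.78 ± 0.62, edgeR adjusted p = 0.256), and Ccr1 at 6.52, 3.93 and 6.14 CPM against 18.0 and 5.92 CPM (1.06 ± 0.48, adjusted p = 0.322).

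Fractalkine UMIs were mostly in tumor cells in each sample, which among the CC ligands held for Ccl2 in Vehicle 4 and Xevinapant 3+4 (71.0% and 50.1%). Cx3cl1 stood at 66.0, 56.0 and 61.6 CPM in tumor cells of the vehicle samples and at 86.5 and 72.2 CPM in those of the Xevinapant samples. Both Xevinapant samples were higher (4 of 8 members in tumor cells, against 19.4% of genes), with a log2 fold change of 0.32 ± 0.13 that did not pass the test (edgeR adjusted p = 0.428). Tumor cells carried 87.3% to 93.0% of Cx3cl1 UMIs in vehicle and 83.8% and 87.1% in Xevinapant samples, and 39.5% to 46.5% of tumor cells had a UMI. The level was 89.5 ± 73.6 CPM (SD, n = 5) in erythrocytes, 68.5 ± 11.7 in tumor cells, 62.3 ± 18.3 in barcodes with no class, 47.3 ± 14.7 in fibroblasts and pericytes, 33.3 ± 24.1 in endothelial cells and 13.3 ± 4.50 in macrophages. Each of these levels overlapped with the next within their SDs. Tumor markers were found outside tumor cells too. Their summed level was 7598 to 9493 CPM in tumor cells, 3103 to 4232 in erythrocytes, 1073 to 1752 in fibroblasts and pericytes, 675 to 1913 in endothelial cells and 520.4 to 1552 in macrophages, with their part in the Cx3cl1 levels not tested. Mixed cells, set apart for carrying tumor markers with those of another class or of several, had 118 ± 21.0 CPM. In endothelial cells Cx3cl1 stood at 25.4, 19.98 and 20.2 CPM in the vehicle samples and at 24.8 and 76.1 CPM in the Xevinapant samples, and none of the 8 members passed the low-count filter for a test there. Over all kept cells Cx3cl1 stood at 66.0, 56.5 and 64.5 CPM against 83.5 and 73.7 CPM (log2 fold change 0.27 ± 0.12, edgeR adjusted p = 0.316).

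Among cells gated as tumor, Cx3cl1 differed with the level of other markers. The gates had no class for host astrocytes or host neurons, so such cells may be among them. Tumor cells with at least 5000 UMIs were ranked within each sample by their UMIs on a list of markers, and the top 10% were set beside the rest. For the astrocyte markers (Gfap, Aqp4, Mlc1 and others) the top 10% held Cx3cl1 at 168, 82.3 and 113 CPM in the vehicle samples and at 214 and 195 CPM in the Xevinapant samples, against 53.2 to 73.0 CPM in the rest, so that they were higher in 5 of 5 samples. For the neuronal markers (Dcx, Stmn2 and others) the top 10% were lower in 5 of 5 samples, at 32 to 63.4 CPM against 57.8 to 88.2 CPM. For the hypoxic mesenchymal markers (Vegfa, Ndrg1 and others) they were higher in 5 of 5, at 85.8 to 140.4 CPM against 53.0 to 83.5 CPM, while the share of cells with a Cx3cl1 UMI was 49.4% to 57.9% against 47.6% to 56.2%, and lower in the top 10% of Xevinapant 1+2. Cells of 1 sample share their source, so these are descriptions of 5 samples with no test.

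The UMIs of a ligand sat in few cells, and the same macrophages often carried several. In any sample the 1% of cells with most UMIs of a gene held 59.3% to 79.5% of all Ccl2, 62.7% to 97.2% of Ccl7 and 70.1% to 89.2% of Ccl12 UMIs, against 13.7% to 23.6% of Cx3cl1 UMIs. As few as 3 to 55 cells of a sample were enough to hold 50% of its Ccl7 UMIs. Among macrophages with a Ccl2 UMI, 54.8% to 86.9% also had a Ccl7 UMI, against 9.22% to 19.1% of macrophages without Ccl2. For Ccl12 by Ccl7 the shares were 44.4% to 64.8% against 12.3% to 22.5%, and for Ccl4 by Ccl3 31.6% to 60.6% against 6.08% to 12.9%. Cells with a UMI of the first gene were deeper, with median totals of 3889 to 9146 UMIs against 2297 to 3327 for Ccl2. At 1000 UMIs per cell, and in the 4 samples with at least 10 such macrophages, Ccl7 was found in 46.7% to 75.1% of cells with Ccl2 and in 9.23% to 24.6% of those without.

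**Figure D5:**
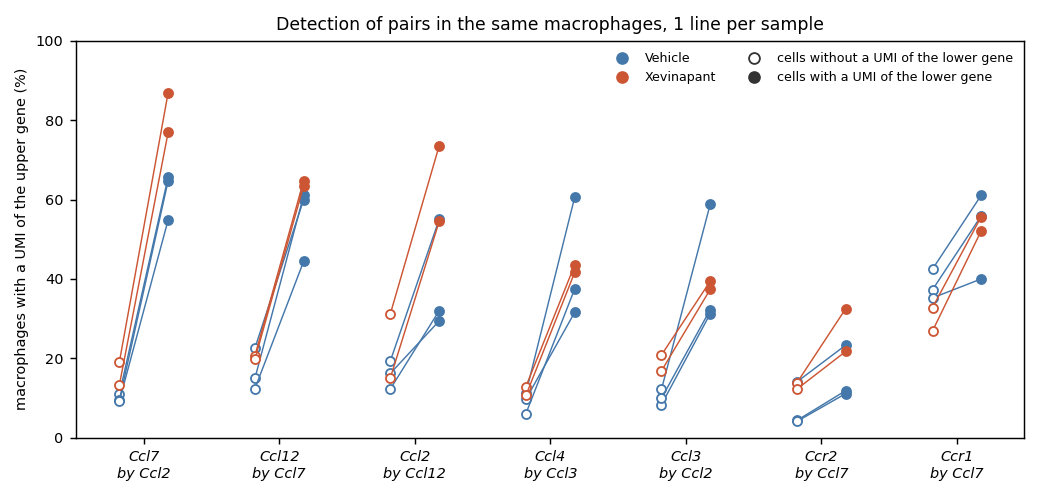
Percent of macrophages with a UMI of the upper gene of a pair, among cells without (open) and with (filled) a UMI of the lower gene, 1 line per sample (blue, Vehicle; orange, Xevinapant). Each line rises, and the rise for Ccl7 by Ccl2 in Xevinapant 1+2 is from 19.1% to 86.9%.

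Levels over cell classes were most alike within some pairs of members. Over 39 sums of a class in a sample with at least 20 cells each, which share samples and differ in depth, log2(CPM + 1) correlated at Pearson r = 0.90 between Ccl2 and Ccl7, 0.93 between Ccl3 and Ccr1 and 0.88 between Ccl3 and Ccl4. Ccl12 was not set clearly with one of them, at 0.75 with Ccl2, 0.74 with Ccl7, 0.72 with Ccr2 and 0.69 with Ccr1, and no correlation of Cx3cl1 with another member was above 0. Among 13324 genes, and leaving the members out, those most like Ccl2 were Spp1 (r = 0.83), Lamp2 (0.80) and Hmox1 (0.80), and those most like Ccl7 were Mmp19 (0.82), Igf1 (0.81) and Guca1a (0.79). Ccl12 was most like the macrophage genes Siglec1 (0.95) and Msr1 (0.94) and Slc7a8 (0.94). Ccl3 was most like the cytokine gene Osm (0.95), Msrb1 (0.91) and Lilrb4a (0.91), and Ccl4 most like Tnf (0.97), the tumor necrosis factor gene, Abr (0.93) and Pik3ap1 (0.92). Ccr1 was most like Igsf6 (0.96), Lilrb4a (0.96) and Themis2 (0.95), and Ccr2 most like Ms4a4c (0.94), Ms4a6b (0.93) and Dok2 (0.92). Cx3cl1 was most like Lrrc49 (0.86), Adcy6 (0.85) and Slc22a23 (0.81).

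Other genes of the chemokine system were followed through fixed lists. Of 25 other chemokine and receptor genes tested over all kept cells 0 were called in either direction (edgeR), 10 were higher and 0 lower at an unadjusted p under 0.05, and their median log2 fold change was 0.93. Of all genes 10.4% were higher and 6.31% lower at that p, the background for each list here. They included Ccl6 (2.66 ± 0.69, adjusted p = 0.247) and Ccl9 (2.51 ± 0.63, adjusted p = 0.247), a pair of myeloid CC ligands that act on Ccr1. Of 14 signalling and processing genes, among them the fractalkine-cleaving proteases Adam10 and Adam17, 0 were called, 6 were higher and 1 lower at an unadjusted p under 0.05, with a median of 0.18, the lower one being Adam10 (-0.44 ± 0.13, edgeR adjusted p = 0.247). Of 12 inflammatory genes often induced with these ligands 0 were called, 6 were higher and 0 lower at an unadjusted p under 0.05, with a median of 1.15. In macrophages 11 of them were tested and 0 called, 2 were higher and 4 lower at an unadjusted p under 0.05 (against 6.04% and 5.98% of genes), with a median of -0.14. Of 16 immediate early and dissociation genes, which respond within minutes to tissue handling as well as to signals, 0 were called and 14 were higher at an unadjusted p under 0.05, with a median of 1.17 over all kept cells and 1.19 in tumor cells. Their summed level was 1343 to 1534 CPM in vehicle and 2539 and 2229 CPM in Xevinapant tumor cells, and 2341 to 3626 CPM against 2556 and 3728 CPM in macrophages, where the groups overlapped. The part of tissue handling in the member levels was not tested.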

How the data were processed

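Single cells of mGSC tumors were profiled with a probe-based 10x Genomics kit on fixed cells. The authors deposited unnormalized UMI counts per gene and barcode, mapped to mm10, with cells called by Cell Ranger. The matrix headers name version 7.1.0 and the methods an earlier one. Seurat is named in the submitters' processing notes. The labels name total RNA for vehicle and polyA RNA for Xevinapant, and the Xevinapant matrices carry the word Vehicle in their names. The sample labels were followed.

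Cells were kept at 200 or more genes, 10% or less mitochondrial UMIs and a complexity of 0.8 or more. A gate needed UMIs on at least 3 markers and a minimum rate per 10000 UMIs (16 for tumor and lymphocyte markers, 32 for endothelial and pericyte markers, 64 for myeloid, neutrophil and fibroblast markers, 256 for erythrocyte markers). These rates were set from the markers after the data were seen. Cells past the myeloid gate became macrophages, monocytes or microglia by the highest scaled marker score, with at least 2 markers of that class and no rate of its own. Dendritic cells needed 4 markers. Left out were 3 markers of myeloid classes that were at least as high in tumor cells as in myeloid cells. Doublets were treated by setting cells with markers of unrelated classes apart as mixed, and no doublet caller was run. Pairs of matrices of a group were joined when the chi-square per degree of freedom of their cell makeup was under 5 and the median chi-square of their counts over genes under 10 times that of sampling noise (2.19 to 8.64 for joined and 28.9 to 82.3 for other pairs of a group). Counts, class shares and the shares given per sample were pooled over joined matrices, and group means and tests of the share of cells with a UMI used the average of joined matrices.

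UMI counts summed per class and sample (10 or more cells) were tested in edgeR 4.0.16 (R 4.3.3) with TMM, filterByExpr, glmQLFit and glmQLFTest, with Benjamini-Hochberg adjustment over all genes tested and a threshold of 0.05. On simulated data for all kept cells (15159 genes) 81% of genes changed 2-fold and 100% of those changed 4-fold were recovered, and for macrophages (10290 genes) 73% and 100%. The simulation gave all genes 1 fixed spread between samples and changed only genes with high counts. Recovery at the spread seen for the members was not tested. For shares, an exact permutation test (two-sided) was run with scipy 1.17.1. Alternatives were DESeq2 1.42.0, its size factors in edgeR, library size alone, no low-count filter, each matrix as 1 tumor, each sample left out, a gate of 2 times the rate, the 5% of barcodes with most UMIs left out and, for non-tumor classes, cells with 16 or more tumor marker UMIs per 10000 left out. Leaving out barcodes shared between pools and taking samples of 5 or more neutrophils were added after seeing the data. All 9 members were to be named in each comparison, and other genes by fixed lists (those past the threshold, or examples) or as the most correlated genes. Adam10, Ccl5, Ccl6, Ccl8 and Ccl9 were chosen after their values were seen. The members and lists were chosen with earlier results of these data known. Shares and levels carry counting error beside the spread between samples. Coordinates and coding sequences came from GENCODE on GRCm38.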

Additional observations from a re-analysis of the deposited data

How the results depend on the processing

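The number of members called differed from that of the edgeR fit under 9 settings beside those that leave out 1 sample. Over all kept cells it was 0, and 2 with DESeq2 (Ccl12 and Ccl3) and 1 with each matrix as 1 tumor (Ccl7). In macrophages it was 0, and 1 with DESeq2 (with 66 of 15983 genes called) and 5 without a low-count filter (with 523 of 15983 genes called). In microglia it was 0, and 2 without that filter (Cx3cl1 and Ccl2, with 68 of 15079 genes called). In monocytes it was 0, and 2 with the stricter gate (Ccl2 and Ccl7, among 33 genes called, against 21 in the edgeR fit, and with 2 vehicle samples against 3). In neutrophils it was 1, and 0 with DESeq2 size factors, with the stricter gate and with samples of 5 or more cells. Leaving out 1 sample gave 0 to 3 calls over all kept cells, 0 to 2 in macrophages and 0 to 1 in monocytes, the higher numbers without Xevinapant 3+4 in the first 2 and without Vehicle 1+3 in monocytes, and it could not be fitted in neutrophils. Where this left 1 Xevinapant sample, that sample is assumed to vary like the vehicle samples. Genes called over all kept cells numbered 0 with edgeR, 776 with DESeq2, 1389 with each matrix as 1 tumor and 564 without Xevinapant 3+4. In tumor cells they numbered 0, 273 with DESeq2 and 695 with each matrix as 1 tumor. Over all settings they ranged from 0 to 523 in macrophages (1 in the edgeR fit), 0 to 68 in microglia (0), 0 to 292 in fibroblasts and pericytes (0) and 0 to 226 in endothelial cells (20), each highest without a low-count filter, from 0 to 82 in monocytes (21), highest without Vehicle 1+3, and from 0 to 8 in neutrophils (1), highest with library size alone. In the Xevinapant samples the share of Cx3cl1 UMIs in tumor cells was 85.5%, and 80.2% with the stricter gate. The causes were not tested.

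Signs turned for members that had not been called. With the stricter gate log2 fold changes were 0.10 for Ccl2 in microglia and 0.79 for Ccl12 and 0.94 for Ccl4 in monocytes, where that gate also left 2 of 3 vehicle samples. For Ccl2 in fibroblasts and pericytes the stricter gate gave 0.32, and each matrix as 1 tumor gave 0.0564 and 0.0899 with a replicate block. Without cells high in tumor markers they were 0.25 for Ccl2 and 0.10 for Ccr2 in microglia and -0.18 for Cx3cl1 in fibroblasts and pericytes. Leaving out 1 sample gave -0.27 to 0.35 for Ccl2 and -0.038 to 1.10 for Ccr1 in tumor cells. In microglia it gave -1.40 to 0.95 for Ccl2, -0.67 to 0.61 for Ccl7 and -0.95 to 0.27 for Ccr2, and in macrophages -0.57 to 0.21 for Ccl4 and -0.14 to 0.82 for Cx3cl1. In monocytes it gave -1.01 to 1.44 for Ccl3 and -2.55 to 0.0643 for Ccl4, and in fibroblasts and pericytes -0.95 to 0.45 for Ccl2, -0.96 to 0.30 for Ccl7 and -0.66 to 1.15 for Ccl12. Of the other values for single members 600 kept their direction and side of the threshold, 19 passed it and 3 lost it. The labels carry no replicate numbers, and the joined samples share none. A replicate block on the matrices' own numbers, chosen after seeing the data, took each matrix as 1 tumor. It gave 0 members called over all kept cells (0 of all genes) and 1 in neutrophils (Ccl4, with 2 of 1208 genes called). The vehicle side of that neutrophil fit was matrices 1 and 3, which are the parts of the joined sample Vehicle 1+3. It therefore adds no vehicle sample to the edgeR fit. Matrices of the same number did not all deviate together from their group means (r over 14690 genes of 0.226, -0.272, -0.202 and 0.049 for numbers 1 to 4). Shares of Cx3cr1-bearing cells were planned and not run, since Cx3cr1 was not analysed here. The neutrophil levels of Vehicle 2 and Vehicle 4 rest on 9 cells each and the monocyte levels of Vehicle 2 on 12, and no simulation was run for these classes.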

Other observations

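Endothelial cells held calls among the listed genes though no member could be tested there. Ackr1, an atypical receptor that carries CC chemokines across venules, had a log2 fold change of 4.81 ± 0.76 (edgeR adjusted p = 0.0217), and Ctss, a protease that can cleave fractalkine, one of 2.03 ± 0.33 (adjusted p = 0.025). Myeloid cells also express Ctss, which is itself 1 of the 10 general myeloid markers, so their sum is no independent gauge of it. In endothelial cells of vehicle samples the 10 markers summed to 0.475% to 0.687% of the macrophage level, with 8 to 10 of them detected. In those of Xevinapant samples they summed to 1.79% and 1.68%, with all 10 detected. Their part in the Ctss value was not tested. They were the only calls among 3 other chemokine genes and 12 signalling and processing genes tested in endothelial cells. Of 14 immediate early and dissociation genes tested there 6 passed the edgeR test, all higher in the Xevinapant samples, with the largest values for Hspa1a (5.32 ± 0.62, adjusted p = 0.0061) and Hspa1b (5.05 ± 0.57, adjusted p = 0.0061). These 2 heat shock genes are near-identical copies, so counts may be split between them. The share of genes called in endothelial cells was 0.255% of 7845, and 0 genes were called there without Vehicle 1+3 or without Vehicle 4.

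In monocytes the calls among listed genes were Cxcl2, a neutrophil-attracting chemokine, with a log2 fold change of 4.89 ± 0.65 (edgeR adjusted p = 0.0095), and Ier3, an immediate early gene, with 2.23 ± 0.28 (adjusted p = 0.0094). Without Vehicle 4, 0 genes were called in monocytes. Ccl6 (1.85 ± 0.37, adjusted p = 0.067) and Ccl8 (3.92 ± 0.84, adjusted p = 0.0824), CC ligands outside the members, did not pass. Ccl5, a T cell and NK cell product, had a value of -3.06 ± 0.88 (adjusted p = 0.222).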
